A study of Mus musculus with 4 samples.

Results

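Plasma cells are the antibody-secreting end stage of the B cell lineage, and 96 of the 31290 liver cells kept across 4 single-cell libraries were of this kind. A cell barcode was taken as a plasma cell when it held at least 10 UMIs (unique molecular identifiers, 1 for each captured transcript) of Jchain, at least 4 UMIs of Mzb1, Sdc1, Tnfrsf17 and Derl3 together, and no UMI of Siglech, Cd3d, Cd3e or Cd3g. Barcodes with fewer than 500 detected genes or with over 20% mitochondrial UMIs had been left out first. All libraries came from livers of male C57BL/6J mice. The NCD library (n = 1) came from normal chow with gavaged water, the HFD libraries (n = 2) from a high-fat diet with gavaged water, and the JQF library (n = 1) from a high-fat diet followed by gavage with Jiangtang Qingre Formula, a mixture of several herbs. JQF animals thus had the diet of the HFD group as well as the formula, and all 3 groups were gavaged. The label fields that call the material hematopoietic stem cells or immune cells did not describe the mixture, which also held hepatocytes, endothelial cells and stellate cells.

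A plasma cell forms when an activated B cell shuts down its B cell programme and turns its endoplasmic reticulum (ER) over to making 1 antibody. The heavy chain constant region that it transcribes sets the class of that antibody: IgM before class switching, IgG or IgA after it. IgA plasma cells arise largely in the gut and its lymphoid tissue, and IgA also passes through the liver into bile. Jchain links the units of secreted IgM and IgA, Mzb1 is an ER chaperone of these cells, Sdc1 is the surface proteoglycan CD138, Tnfrsf17 is the survival receptor BCMA and Derl3 takes part in the removal of misfolded proteins from the ER.

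The cells were chosen by their own UMI counts of Jchain and the other marker genes, so these values describe the members and were not tested. Jchain ran from 12 to 2671 UMIs per cell with a median of 745, and the other 4 markers together ran from 4 to 433 UMIs with a median of 73.5. Xbp1, the transcription factor that builds the secretory apparatus and that was not in the rule, was found in 95 of 96 cells. Its median was 22.5 UMIs, and the exception was an HFD replicate 1 cell with 12 Jchain UMIs and 1.26% immunoglobulin UMIs. Prdm1 (Blimp-1), which represses the B cell programme, was detected in 77 cells, and Irf4, which is needed for plasma cell formation, in 86 cells. The name therefore held for the group except in the weakest case, that HFD replicate 1 cell. This cell had 87 UMIs of B cell markers, the most of any member, 8 of them Ms4a1. Its heavy chain UMIs were of Igha (38), Ighm (20), Ighd (6) and Ighg2c (5), and its light chain UMIs were 74 kappa and 48 lambda. The rule kept it as a member.

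Few cells lay close to the Jchain limit, while more JQF barcodes lay just under the second minimum. Only 1 member held 10 to 19 Jchain UMIs, and the NCD, HFD replicate 2 and JQF members began at 118, 123 and 21 UMIs. Among the cells that passed the second marker set with 1 to 9 Jchain UMIs, of which there were 4, 3, 15 and 14 in NCD, HFD replicate 1, HFD replicate 2 and JQF, the highest held 6, 1, 2 and 5. With at least 10 Jchain UMIs but 0 to 3 UMIs of the second set there were 25 barcodes in JQF and 3 in HFD replicate 2. Those of JQF held 13 to 40 Jchain UMIs and 1296 to 3732 UMIs in all, and Ighm led the heavy chains in 24 of them. The conditions on Cd3 mattered in JQF alone among the libraries by more than 2 cells, since 23 JQF cells and 2 HFD replicate 2 cells met both UMI minimums but carried a Cd3 UMI, 1 of the JQF cells with a Siglech UMI as well. No barcode outside the called cells met the UMI rule in any library.

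The UMI minimums of the rule favour barcodes with many UMIs, so the depth of the members is a description. They held 2839 to 89663 UMIs, with medians of 31606 in NCD, 27433 in HFD replicate 1, 21009 in HFD replicate 2 and 32960 in JQF, against medians of 13081, 7608, 7874 and 8884 over all kept cells. Pairs of libraries shared 12 to 27 cell barcodes. Markers of other cell types were few in most members once Bst2, Tcf4, Ccr9, Ccr2, Ly6c2, Epcam, Cd28, Fn1 and Klrk1 were taken out of the lists. With the full lists, monocyte markers summed to 881 UMIs over 28 of 29 HFD replicate 2 cells, with up to 195 in a cell. Plasmacytoid dendritic cell markers then reached 133 UMIs in an NCD cell. By the shorter lists, 8 cells held at least 40 UMIs of another lineage's markers or under 5% immunoglobulin UMIs. They were 1 NCD, 1 HFD replicate 1, 2 HFD replicate 2 and 4 JQF cells and are called mixed cells below. Counts of called genes are also given without them, as are the named calls that were lost without them.

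Plasma cells made up 11 of 5975 kept cells in NCD, 10 of 6516 in HFD replicate 1, 29 of 10259 in HFD replicate 2 and 46 of 8540 in JQF. The shares were 0.184% (95% exact Clopper-Pearson interval 0.0919 to 0.329), 0.153% (0.0736 to 0.282), 0.283% (0.189 to 0.406) and 0.539% (0.395 to 0.718). NCD lay between the HFD libraries, and JQF lay above both. These intervals cover counting error only and not the spread between animals. The HFD share was 0.218% ± 0.0914 (SD, n = 2).

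**Figure D1:**
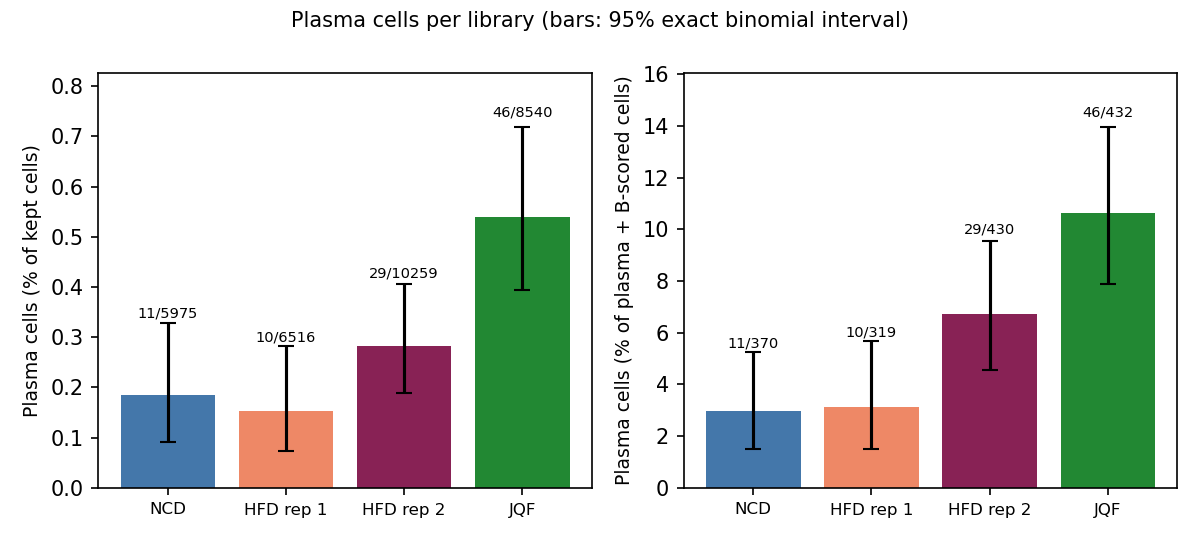
Plasma cells per library as a percentage of all kept cells (left) and of plasma cells plus B-scored cells (right), with bars for the share, error bars for the 95% exact binomial interval and the cell counts printed above. JQF has the highest share on the left, at 0.539% against 0.153% and 0.283% in the HFD libraries, and on the right, at 10.6%.

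No test separated the groups, although JQF lay outside the range of the HFD pair. In edgeR's quasi-likelihood test on counts of cells in 14 lineage groups, the log2 ratio of JQF to HFD was 1.28 (SE 1.12, adjusted p = 0.955), and that of HFD to NCD was 0.26 (SE 1.23, adjusted p = 0.837). No lineage group passed an adjusted p of 0.05 in either comparison (background 0%), and 2 and 0 of the 14 groups had an unadjusted p under 0.05 in HFD against NCD and JQF against HFD. The exact two-sided permutation test over libraries gave p = 0.333 for JQF against HFD, the smallest value that 1 against 2 libraries can reach, so it could not have passed, and p = 1 for HFD against NCD. Over 10 such permutation values the Benjamini-Hochberg adjusted p was 0.476 and 1.

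The order of the libraries depended on the denominator for NCD but not for JQF. Of cells with a Ptprc (CD45) UMI, plasma cells were 0.467% in NCD, 0.168% in HFD replicate 1, 0.338% in HFD replicate 2 and 0.617% in JQF. Of plasma cells plus the cells that scored highest for B cell markers, which numbered 359, 309, 401 and 386, they were 2.97%, 3.13%, 6.74% and 10.6%. When the conditions on Cd3 and Siglech were dropped, JQF held 69 cells, or 0.808% (0.629 to 1.02), with 11, 10 and 31 cells in the other libraries.

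The secretory programme set plasma cells apart from the B-scored cells of the same libraries. Because the rule chose the cells by their transcripts, this contrast is a description without a test. Levels are given as CPM, the UMIs of a gene per 1000000 UMIs other than immunoglobulin, averaged over the 4 libraries. In JQF the B-scored cells included cells just outside the rule, and Jchain stood at 765 CPM in them against 0.486 to 6.59 CPM in the other libraries.

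ER chaperones and folding enzymes were higher in plasma cells in all 4 libraries for 23 of 25 genes, with a median ratio of 9.42. Over 8830 genes the median ratio was 0.919, and 20.6% of genes were higher and 31.0% lower in all 4 libraries. Hsp90b1 (GRP94), the ER member of the HSP90 family, stood at 5327 against 354 CPM, and Hspa5 (BiP), which holds unassembled heavy chains, at 2943 against 394 CPM. Creld2 and Fkbp11 were at 702 and 324 CPM in plasma cells and at 18.5 and 6.14 CPM in B-scored cells. Ero1lb, an oxidase that regenerates disulfide bonds, was at 291 against 410 CPM on average.

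The machinery that brings new chains into the ER, removes their signal peptides and attaches sugars was higher in all 4 libraries for 24 of 25 genes (median ratio 6.67). Ssr4, a subunit of the translocon-associated complex, was at 2245 against 112 CPM, and Sec11c, a signal peptidase subunit, at 1784 against 140 CPM. Of the sensors of the unfolded protein response and the degradation pathway, 16 of 20 were higher in all 4 libraries (median ratio 5.18). This list holds Derl3, a gene of the rule, and without it 15 of 19 were higher (median ratio 4.72), with Edem2 at 447 against 21.7 CPM and Ern1 (IRE1) at 482 against 47.7 CPM. The vesicle proteins of ER-to-Golgi transport were higher for 20 of 20 genes (median ratio 3.70), with the cargo receptor Lman1 at 387 against 21 CPM.

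**Figure D2:**
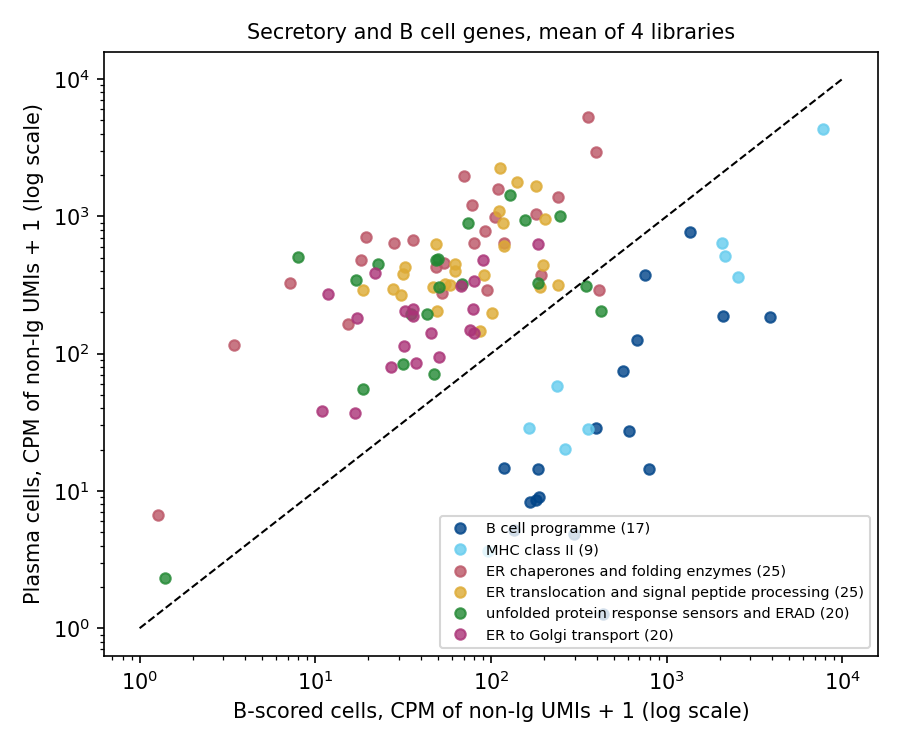
Mean level of each listed gene in B-scored cells (x axis) and in plasma cells (y axis), in CPM of UMIs other than immunoglobulin plus 1 on log scales, 1 point per gene and averaged over 4 libraries, with a dashed line of equality. ER and transport genes lie above the line with few exceptions, while genes of the B cell programme and MHC class II lie below it.

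The promoters of the folding genes are shown because a known DNA element of the ER stress response recurs in them. The element was searched as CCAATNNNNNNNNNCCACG on both strands of RefSeq promoter windows (GRCm38.p6, from 250 bases before to 50 after the start, 300 bases in all). It was in 0.137% of the 27025 genes with a window. Among the ER chaperones and folding enzymes it was in 7 of the 22 genes that had a window (31.8%), among the sensors and degradation genes in 2 of 18 (11.1%, Derl3 among them), and in 0 of 19 translocation genes, 0 of 17 ER-to-Golgi genes, 0 of 10 genes of the B cell programme and 0 of 7 MHC class II genes. A match is a description of letters and not of binding. The windows below run 5′ to 3′ on the strand of the gene, and the capitals mark the outer letters of the element.
Hspa5, chr2:34772005-34772063, plus strand: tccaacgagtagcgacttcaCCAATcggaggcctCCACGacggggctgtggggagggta
Pdia6, chr12:17266471-17266529, plus strand: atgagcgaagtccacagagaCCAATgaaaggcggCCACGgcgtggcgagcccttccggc
Creld2, chr15:88819500-88819558, plus strand: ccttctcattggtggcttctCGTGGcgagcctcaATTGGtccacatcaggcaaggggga
Derl3, chr10:75893222-75893280, plus strand: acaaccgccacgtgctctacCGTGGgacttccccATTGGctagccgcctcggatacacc
Hsp90b1, chr10:86705513-86705676, minus strand: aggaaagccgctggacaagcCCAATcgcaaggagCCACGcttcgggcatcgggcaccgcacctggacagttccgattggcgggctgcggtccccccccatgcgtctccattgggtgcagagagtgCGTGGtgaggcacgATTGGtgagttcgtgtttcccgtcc
In Hspa5 the element began 65 bases before the start of the gene and in Pdia6 98 bases before it. In Creld2 and Derl3 it lay on the other strand, so that it reads CGTGGNNNNNNNNNATTGG. Hsp90b1 held 2 elements, 1 in each orientation, the first of them 212 bases before the start. Ratios of plasma cells to B-scored cells for these genes were 7.48 (Hspa5), 8.57 (Pdia6), 38.0 (Creld2), 71.6 (Derl3, a gene of the rule) and 15 (Hsp90b1). The other genes of these lists with the element were Dnajc3, Calr, Syvn1 and Canx, with ratios of 8.06, 5.73, 4.58 and 1.94.

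The B cell programme was lower in plasma cells in all 4 libraries for 17 of 17 genes, with a median ratio of 0.0475. Pax5, which holds B cell identity, was at 54.2 CPM in HFD replicate 1, where 1 cell held all of its UMIs, and at 0 in NCD, HFD replicate 2 and JQF. Cxcr5, the follicle homing receptor, had a UMI in 1 of 96 cells. Of the B cell genes that remained, Cd79a was at 769 against 1362 CPM and Cd79b at 370 against 753 CPM. All 9 MHC class II genes were lower as well (median ratio 0.168), with Cd74, the invariant chain, the highest at 4299 against 7789 CPM.

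Other genes with large ratios were not in the rule. Among genes of at least 100 CPM in plasma cells, Prg2, the eosinophil granule major basic protein, was at 426 against 0.0791 CPM and had the largest ratio. It was found in 5, 7, 15 and 22 cells of NCD, HFD replicate 1, HFD replicate 2 and JQF. Ly6c2 was at 1086 against 15.6 CPM, the prolactin receptor gene Prlr at 107 against 1.08 CPM, and the antiprotease gene Slpi at 5455 against 170 CPM. Slpi was uneven between libraries, at 2826 CPM in NCD, 294 CPM in HFD replicate 1, 12856 CPM in HFD replicate 2 and 5844 CPM in JQF, so the HFD libraries lay on both sides of the others.

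Survival and homing receptors were detected at moderate levels. Cd28, a costimulatory receptor gene, Slamf7 and the TACI gene Tnfrsf13b were at 157, 426 and 351 CPM. The mucosal chemokine receptor gene Ccr10 was at 71.2, 54.2, 43.0 and 69.1 CPM in NCD, HFD replicate 1, HFD replicate 2 and JQF and was seen in 33 of 96 cells, while the small-intestine receptor gene Ccr9 was at 23.7, 38.7, 0 and 3.19 CPM. Itgb7, a subunit of the gut homing integrin, was at 107 to 157 CPM.

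Each plasma cell was given the class of the heavy chain constant gene with the most UMIs. This gene held a median of 100% of the heavy chain UMIs of a cell, and at least 90% of them in 93 of 96 cells. The lowest shares were 55.1% in the weakest HFD replicate 1 cell and 58.4% in 1 JQF cell. Igha was detected in 2.54%, 0.293%, 5.14% and 11.3% of T-scored cells in NCD, HFD replicate 1, HFD replicate 2 and JQF, and other chains were found in more of them. Ighm was detected in 24.9%, 24.1%, 26.1% and 38.7% and Igkc in 10.3%, 8.39%, 29.4% and 39.8% of T-scored cells, so free immunoglobulin RNA was present in the libraries. The median T-scored cell held 0 UMIs of each of the 3 genes.

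IgA was the class of 7 of 11 plasma cells in NCD, 3 of 10 in HFD replicate 1, 9 of 29 in HFD replicate 2 and 17 of 46 in JQF. These shares were 63.6% (exact interval 30.8 to 89.1), 30% (6.67 to 65.2), 31.0% (15.3 to 50.8) and 37.0% (23.2 to 52.5). The HFD mean was 30.5% ± 0.732 (SD, n = 2), NCD lay above both HFD libraries and JQF slightly above. The closeness of the HFD pair rested on the weakest HFD replicate 1 cell, which counted as IgA, and without the mixed cells IgA was 2 of 9 (22.2%) in HFD replicate 1 and 8 of 27 (29.6%) in HFD replicate 2. The intervals of NCD and of each other library overlapped.

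**Figure D3:**
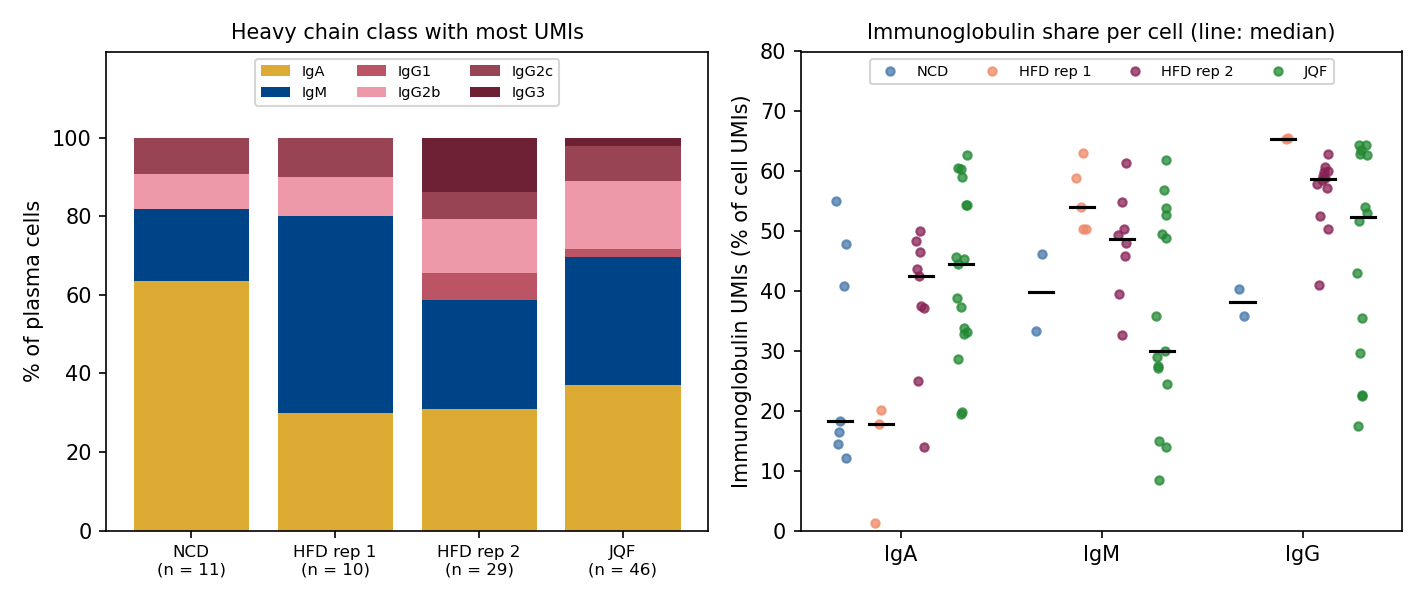
Heavy chain class of the plasma cells of each library as stacked percentages (left), and the immunoglobulin share of each cell's UMIs by class and library, with a line at the median (right). IgA is the class of 63.6% of NCD cells and of 30% to 37.0% of the others, and the cells of each class span a wide range of immunoglobulin shares.

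IgM was the class of 2, 5, 8 and 15 cells in NCD, HFD replicate 1, HFD replicate 2 and JQF (18.2%, 50%, 27.6% and 32.6%). The IgG classes together held 2, 2, 12 and 14 cells (18.2%, 20%, 41.4% and 30.4%). IgG2b was the most frequent of them with 1, 1, 4 and 8 cells, followed by IgG2c with 1, 1, 2 and 4. IgG3 was the class of 4 HFD replicate 2 cells and 1 JQF cell, and IgG1 of 2 and 1. No cell used IgD or IgE most. Taken as 3 over the number of cells, this allows a share of up to 6.52% for the 46 JQF cells and up to 30% for the 10 HFD replicate 1 cells.

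The IgA share of NCD lay outside the range of the HFD pair, but no class passed a test. With edgeR on 6 classes, 0 passed in either comparison (background 0%), and 0 had an unadjusted p under 0.05. The log2 ratio of the IgA share in HFD to that in NCD was -1.04 (SE 0.37, adjusted p = 0.586), and of JQF to HFD 0.26 (adjusted p = 0.938). For IgM the values were 0.86 (SE 0.78, adjusted p = 0.586) and -0.03 (adjusted p = 0.954). The exact permutation p for IgA was 0.333 in both comparisons, the smallest possible with 1 against 2 libraries, so this test could not have passed (adjusted p = 0.476).

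Immunoglobulin transcripts made up a median of 35.9% of a cell's UMIs in NCD, 52.2% in HFD replicate 1, 50.1% in HFD replicate 2 and 43.8% in JQF. The ranges overlapped widely, at 12.1% to 55.1%, 1.26% to 65.5%, 14% to 62.8% and 8.39% to 64.3%. The HFD median was 51.1% ± 1.5 (SD, n = 2), and both single libraries lay below it, with an exact permutation p of 0.333 in each comparison and an adjusted p of 0.476. By class, the median was 57.5% in IgG cells, 48.4% in IgM cells and 38.2% in IgA cells over all libraries. This order held within each HFD library but not within JQF or NCD. In JQF the median of IgM cells was 29.95%, below the 44.4% of IgA cells. In NCD the median of IgG cells was 38.1%, below the 39.8% of IgM cells, with 2 cells in each class. Within IgA cells the medians were 18.3%, 17.7%, 42.5% and 44.4% in NCD, HFD replicate 1, HFD replicate 2 and JQF, so the HFD libraries lay apart from each other.

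Light chains were mostly kappa. The lambda chain led in 8 of 96 cells, 1 of them in NCD and 7 in JQF (15.2%, exact interval 6.34 to 28.9). It led in 0 of 10 and 0 of 29 cells of the HFD libraries, with exact upper limits of 30.8% and 11.9%. Without the mixed cells, 4 JQF cells were left with a lambda chain. Of the 8 lambda cells, 4 were IgA, 4 IgM and 0 IgG.

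A heavy and a light variable (V) gene, each with at least 3 UMIs, could be read in 87 cells, and these held 77 distinct pairs. Within a library, 7 pairs recurred, in 17 cells, and in each of them all cells used the same class. In HFD replicate 1, 3 IgM cells shared Ighv2-5 with Igkv14-100. In HFD replicate 2, pairs of cells shared Ighv14-2 with Igkv4-61 (IgG2b), Ighv3-5 with Igkv6-17 (IgG3), Ighv6-3 with Igkv1-88 (IgG3) and Ighv5-17 with Igkv3-12 (IgG1). In JQF, 3 IgM cells shared Ighv1-53 with Igkv3-2, and another 3 IgM cells shared Ighv1-53 with Igkv3-9.

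Cells in such recurring pairs were 0 of 11 in NCD, 3 of 9 in HFD replicate 1, 8 of 26 in HFD replicate 2 and 6 of 41 in JQF (0%, 33.3%, 30.8% and 14.6%). The pair of Ighv1-53 and Igkv3-2 was also found in 1 IgM cell of HFD replicate 2, so the same V genes recurred in different libraries. The reads give V genes but no junction sequence, so whether the cells of a pair descended from the same B cell was not tested, and near-identical V genes can share reads. Ighv1-53 was the most frequent heavy V gene, in 1, 0, 2 and 7 cells, and Igkv1-110 the most frequent light V gene, in 10 cells in all.

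A subset of plasma cells transcribed cell cycle genes, as plasmablasts do before they stop dividing. At least 20 UMIs of a list of 16 cell cycle genes were found in 1 of 11 NCD cells, 0 of 39 HFD cells and 9 of 46 JQF cells (19.6%, exact interval 9.36 to 33.9). The NCD cell held 411 such UMIs and the JQF cells 21 to 359. Another 1, 0, 1 and 4 cells in NCD, HFD replicate 1, HFD replicate 2 and JQF held 10 to 19, and 2 of the 9 JQF cells lay close to the limit, at 20 to 29. Of the 9 JQF cells, 1 was a mixed cell with 604 UMIs of epithelial markers other than Epcam. Scrublet, a doublet caller, at the expected rate marked 3 of the 9 (6 of 43 JQF cells were left) as well as the NCD cell. After each cell was thinned to 10000 UMIs, at least 5 cell cycle UMIs were left in 2 of 11, 1 of 9, 1 of 28 and 8 of 43 cells, with 0, 1, 1 and 3 shallower cells left out. The exact permutation p for JQF against HFD was 0.333 (adjusted p = 0.476).

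The 10 cells high in cell cycle genes were low in antibody transcripts. Immunoglobulin made up 8.39% to 29.0% of their UMIs (median 19.7%), against a median of 49.1% in the other 86 cells, of which 74 lay above every one of the 10. Within JQF, 33 of the 37 other cells lay above them. Their median Jchain count was 435 UMIs against 820, although they were the deeper cells, with a median of 46127 against 27937 UMIs. Per 1000 UMIs other than immunoglobulin, the list reached a median of 1.95 in these cells (0.402 to 8.31) and 0.292 in the others (up to 1.17), so the ranges overlapped, and 3 of the 10 lay under the highest of the others. By class they were 4 IgA, 3 IgM and 3 IgG2b or IgG3 cells, and 2 of the 3 IgM cells were among those that shared Ighv1-53 with Igkv3-2. All 10 came from NCD and JQF. They were picked by a raw UMI count, which favours cells with many UMIs other than immunoglobulin. The part of this choice in their low immunoglobulin share was not tested.

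**Figure D4:**
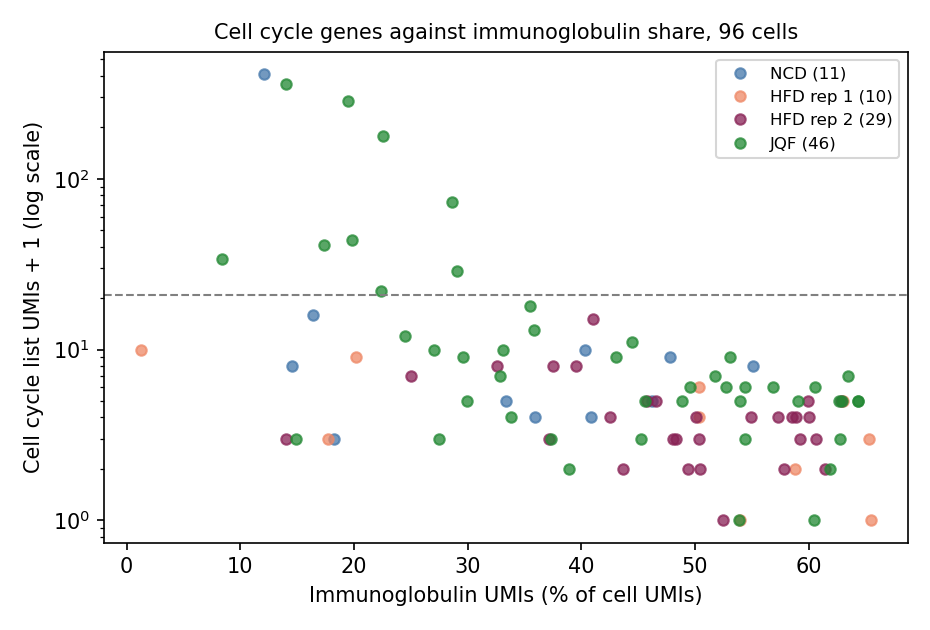
Immunoglobulin share of UMIs (x axis, percent) and UMIs of the cell cycle list plus 1 (y axis, log scale) for each of the 96 plasma cells, coloured by library, with the dashed line at the limit of 20 UMIs. The 9 JQF cells and the 1 NCD cell above the line all lie at or below 29.0% immunoglobulin.

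Gene expression was then compared on UMIs summed over the plasma cells of each library, with immunoglobulin genes taken out. The sums held 252657 UMIs in NCD, 129247 in HFD replicate 1, 348858 in HFD replicate 2 and 940946 in JQF. NCD and JQF are single libraries, so their spread was taken from the HFD pair and the p-values are only as good as that assumption. Of 5808 genes tested with edgeR's quasi-likelihood test, 304 passed an adjusted p of 0.05 in HFD against NCD (5.23%), 95 higher (1.64%) and 209 lower (3.6%). In JQF against HFD 101 genes passed (1.74%), 75 higher (1.29%) and 26 lower (0.448%). An unadjusted edgeR p under 0.05 was reached by 898 of the 5808 genes in HFD against NCD and by 384 in JQF against HFD. Counts of listed genes at that level are to be read against these. With immunoglobulin genes kept in the table, the numbers were 145 higher and 166 lower in HFD against NCD and 97 higher and 54 lower in JQF against HFD. DESeq2 called 25 and 5 genes, all of them among those of edgeR. Of 81 edgeR calls counted over listed and most other named genes, DESeq2 made 9, did not make 48 and gave no adjusted p for 24. The 9 were Alcam, Dennd4a, Gbp2, Ikzf3, Mki67, Nrip1 and Pde3b in HFD against NCD, and Hspa1a and Spp1 in JQF against HFD. The 81 did not include Prg2, Slpi, Lyz1, Cxcl13, Rpl35, Rps27, Rps29, Rpl37a and mt-Co1. DESeq2 called all of these but Slpi. In JQF against HFD its 5 genes were Cxcl13, Hspa1a, Lcn2, Lyz1 and Spp1. Without the mixed cells, Cxcl13, Lyz1 and Spp1 could not be tested.

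Single cells weighed on many of these calls. A single cell gave over 50% of the UMIs on the higher side for 20 of the 95 and 89 of the 209 genes in HFD against NCD, and for 47 of the 75 and 10 of the 26 in JQF against HFD. Of the 70 higher and 120 lower genes in HFD that rested on several cells with both HFD libraries on the same side, 61 and 100 had the same sign in B-scored cells of the same libraries, but 33 and 38 were past a log2 of 1 there. In all other cells, 57 and 79 had the same sign. In JQF against HFD the sign was the same in B-scored cells for 15 of 28 higher and 14 of 16 lower genes, and 4 of each were past a log2 of 1. The part of a library-wide difference in these calls was not tested.

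Ribosomal and mitochondrial transcripts, taken as signs of library composition, moved with HFD against NCD. Of 80 cytosolic ribosomal protein genes tested, picked by symbol after their values were seen, 76 were above NCD in HFD (median log2 0.56), 11 rose and 0 fell. Of the 12 ribosomal genes in the list fixed for library composition, 12 were above NCD in HFD (median log2 0.43) and 1 rose (Rps24, log2 0.96, adjusted p = 0.0149). The Rps24 call was lost in DESeq2 (adjusted p = 0.224), and in edgeR with immunoglobulin genes kept, without the filter and without the cells high in cell cycle genes (log2 0.75 to 1.09, adjusted p = 0.0594 to 0.119). Rpl35 was at 281 CPM in NCD, 1192 in HFD replicate 1, 1330 in HFD replicate 2 and 1066 in JQF (log2 2.28, adjusted p = 1.2e-06), and its log2 ratio was 2.89 in B-scored cells and 3.15 in all other cells. DESeq2 also called Rpl35, Rps27, Rps29 and Rpl37a, whose log2 ratios were 1.37 to 2.89 in B-scored cells. Of 13 mitochondrial genes 11 were above NCD and 2 rose, among them mt-Co1 at 3230, 7753, 8359 and 5956 CPM (log2 1.43, adjusted p = 2.2e-05), with a log2 ratio of 1.26 in B-scored cells. Mitochondrial shares of all UMIs, immunoglobulin included, had medians of 1.98%, 1.70%, 1.87% and 1.82% per plasma cell in NCD, HFD replicate 1, HFD replicate 2 and JQF. In JQF against HFD 36 of the 80 ribosomal genes, and 4 of the 12 listed, were above HFD (median log2 -0.02 in each), and none of the ribosomal or mitochondrial genes passed edgeR, with 0 of 80 and 2 of 13 at an unadjusted p under 0.05. The part of this shift in the calls of HFD against NCD was not tested.

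The secretory genes were mostly above the NCD level in HFD, but few passed. Of the ER chaperones and folding enzymes, 2 of 24 tested rose, 0 fell, and 19 of 24 had a positive difference (median log2 0.62 against 0.04 over all genes). Manf, an ER-resident stress factor, was at 803 CPM in NCD, 1540 in HFD replicate 1, 1691 in HFD replicate 2 and 2279 in JQF (HFD against NCD log2 1.12, SE 0.34, edgeR adjusted p = 0.0262). Prdx4, the ER peroxiredoxin, was at 182, 410, 837 and 502 CPM in the same order (log2 1.91, SE 0.44, adjusted p = 0.0009). Both HFD libraries lay above NCD for both genes, and DESeq2 called neither. The Manf call was also lost without the filter on low counts (log2 1.05, adjusted p = 0.119).

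Hspa5 had the opposite pattern. It was at 3681 CPM in NCD, 2081 in HFD replicate 1, 1964 in HFD replicate 2 and 4046 in JQF, so the HFD libraries lay together below the others. It rose in JQF against HFD (log2 0.99, SE 0.28, adjusted p = 0.0319), whereas HFD against NCD did not pass (log2 -0.76, SE 0.29, adjusted p = 0.111). The call in JQF was lost at a similar fold when immunoglobulin genes were kept in the table (log2 0.97, adjusted p = 0.153), and at a smaller one when the Cd3 and Siglech conditions were dropped (log2 0.61, adjusted p = 0.646). DESeq2 did not make this call either (log2 1.00). Without the cells high in cell cycle genes, the difference between HFD and NCD passed (log2 -1.09, adjusted p = 0.00484), as it did without scaling beyond library totals (log2 -0.86, adjusted p = 0.039). In B-scored cells the log2 ratio of JQF to HFD for Hspa5 was 0.97, and in all other cells 0.26. The B-scored cells of JQF included cells just outside the rule, and their part in that ratio was not tested. Hspa5 was the 1 ER chaperone of 24 called in JQF against HFD (median log2 0.15 against -0.02 over all genes).

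Other secretory lists held few calls. None of the 25 translocation genes passed in HFD against NCD, though 21 were above NCD (median log2 0.56). In JQF against HFD 0 of 25 passed. At an unadjusted p under 0.05 were 6 and 0 of the 25, against 898 and 384 of all 5808 genes tested. Of the sensors and degradation genes, Atf6, a sensor that is cut to release a transcription factor, fell in HFD, at 1947 CPM in NCD against 557, 783 and 722 CPM in HFD replicate 1, HFD replicate 2 and JQF (log2 -1.42, adjusted p = 0.00102). NCD lay above all other libraries, but DESeq2 did not call Atf6 at the same fold (log2 -1.43, adjusted p = 0.109). The ER-to-Golgi list had 0 of 20 genes called in either comparison, with 1 of 20 at an unadjusted p under 0.05 in each.

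Of the plasma cell transcription factors, 2 of 10 fell in HFD against NCD. Ikzf3 (Aiolos), a lymphoid zinc finger factor, was at 989 CPM in NCD and 240, 241 and 387 CPM in HFD replicate 1, HFD replicate 2 and JQF (log2 -1.93, SE 0.39, adjusted p = 7.1e-05), with 50.4% of the NCD UMIs in 1 cell. Fli1, an ETS factor, was at 1449, 495, 456 and 482 CPM in the same order (log2 -1.50, adjusted p = 0.00107), a call that DESeq2 did not make (log2 -1.52, adjusted p = 0.0974). Both HFD libraries and JQF were well below NCD. Prdm1, Irf4 and Xbp1 did not pass, at log2 -0.20, -0.53 and 0.79.

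Pou2f2 (OCT2), the octamer factor of immunoglobulin promoters, fell in JQF. It was at 91.0 CPM in NCD, 302 in HFD replicate 1, 175 in HFD replicate 2 and 58.5 in JQF (log2 -1.99, SE 0.52, adjusted p = 0.0102), with UMIs in 28 of 39 HFD cells and no cell above 10.0% of them. JQF lay under both HFD libraries. Without the mixed cells and without the cells high in cell cycle genes the folds were similar (log2 -1.67 and -1.75), but the call was lost (adjusted p = 0.0721 and 0.0673). HFD against NCD gave log2 1.45 (adjusted p = 0.107), which passed without the cells high in cell cycle genes (log2 2.24, adjusted p = 0.00797). It was the 1 gene of 10 in its list called in JQF against HFD. Of the B cell programme, Bach2, a repressor of plasma cell formation, fell in HFD (439 CPM in NCD against 132 and 71.7, log2 -2.09, adjusted p = 0.000696, 55.9% of the NCD UMIs in 1 cell), a call that was lost without the cells high in cell cycle genes (adjusted p = 0.112). DESeq2 made neither the Bach2 call (log2 -2.06, adjusted p = 0.255) nor that of Pou2f2 in JQF against HFD (log2 -2.01).

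MHC class II genes were above NCD in HFD for 8 of 8 genes tested, and 2 passed (median log2 1.21, or 1.07 with genes at 0 set to their bound). Cd74 was at 2588 CPM in NCD, 5393 in HFD replicate 1, 4661 in HFD replicate 2 and 4554 in JQF (log2 1.06, SE 0.29, adjusted p = 0.00809). H2-Aa, which encodes a class II alpha chain, was at 119, 333, 430 and 568 CPM (log2 1.81, SE 0.48, adjusted p = 0.00653). NCD was lowest for both. The Cd74 call was lost without the cells high in cell cycle genes (log2 0.74, adjusted p = 0.102) and without the filter (log2 0.99, adjusted p = 0.0681). The H2-Aa call was lost without the mixed cells (log2 1.04, adjusted p = 0.243) and with a Jchain minimum of 20 UMIs (log2 1.36, adjusted p = 0.0637). In IgA cells without HFD replicate 1, a value with no test, the H2-Aa log2 difference was -0.76. DESeq2 called neither gene at similar folds (log2 1.05 for Cd74 and 1.79 for H2-Aa, adjusted p = 0.152 and 0.193). Cd74 was at 1093 CPM in the near-empty barcodes of NCD and at 4438, 4596 and 2975 CPM in those of HFD replicate 1, HFD replicate 2 and JQF, and the part of this free RNA in the calls was not tested.

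Among homing receptors, the integrin subunit gene Itga4 fell in both comparisons. It was at 2228 CPM in NCD, 921 in HFD replicate 1, 565 in HFD replicate 2 and 315 in JQF, and the groups did not overlap. Over all 5808 genes tested, the HFD pair did not overlap NCD for 74.3% and JQF for 60.8%. HFD against NCD gave log2 -1.50 (SE 0.33, adjusted p = 0.00038) and JQF against HFD log2 -1.23 (SE 0.36, adjusted p = 0.0423). The second call was lost under 5 alternatives, among them without the mixed cells (log2 -0.89, adjusted p = 0.366). Cxcr4, the bone marrow homing receptor gene, rose in HFD (35.6 CPM in NCD against 240 and 103 CPM, log2 2.28, adjusted p = 0.0143), a call lost without the cells high in cell cycle genes (log2 1.87, adjusted p = 0.0587) and, at a similar fold, without the filter (log2 2.20, adjusted p = 0.0521), and Cd44 fell (839 against 271 and 358 CPM, log2 -1.28, adjusted p = 0.0222), a call lost at a similar fold with immunoglobulin genes kept (log2 -1.16, adjusted p = 0.0544). Of the 13 genes tested in this list, 1 rose and 2 fell in HFD, and 1 fell in JQF. DESeq2 made none of the calls of Itga4 and Cd44 (adjusted p = 0.0967 and 0.346 in HFD against NCD). None of 14 survival receptor genes passed in either comparison, with 3 and 1 of them at an unadjusted p under 0.05.

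Of 6 genes tied to regulatory plasma cells that were tested, 2 fell in HFD, 0 rose and 4 were above NCD without passing (median log2 1.09). Cd274 (PD-L1) was at 1326 CPM in NCD and at 387, 387 and 442 CPM in HFD replicate 1, HFD replicate 2 and JQF (log2 -1.67, SE 0.36, adjusted p = 0.000299), although 1 NCD cell gave 52.5% of the NCD UMIs. Ctla4 was at 926, 201, 393 and 285 CPM (log2 -1.48, SE 0.39, adjusted p = 0.00539), with UMIs in 10 of 11 NCD cells. NCD was highest for both. DESeq2 called neither, at similar folds (log2 -1.68 and -1.51, adjusted p = 0.0678 and 0.278). In IgA cells without HFD replicate 1, a value with no test, the Ctla4 log2 difference was 0.10. Il10, the suppressive cytokine gene, was found in 3, 2, 2 and 11 cells and passed in neither comparison (log2 1.53 and -0.31), and none of the 6 passed in JQF against HFD.

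Cxcl10, an interferon-induced chemokine gene, rose in JQF. It was at 491 CPM in NCD, 279 in HFD replicate 1, 338 in HFD replicate 2 and 1079 in JQF (JQF against HFD log2 1.78, SE 0.37, adjusted p = 0.000192). JQF lay above all other libraries. DESeq2 did not call it at the same fold (log2 1.79, adjusted p = 0.401), and in IgA cells without HFD replicate 1, a value with no test, the log2 difference was -0.35. It was spread over 34 of 46 JQF cells, whereas 1 cell held 91.7% of the UMIs in HFD replicate 1 and 63.6% in HFD replicate 2. In B-scored cells it was at 56.8, 23.8, 27.7 and 87.0 CPM. Other interferon-stimulated genes did not follow: 0 of 7 tested passed in JQF against HFD, 1 of 7 at an unadjusted p under 0.05, and 6 of 7 were below HFD.

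**Figure D5:**
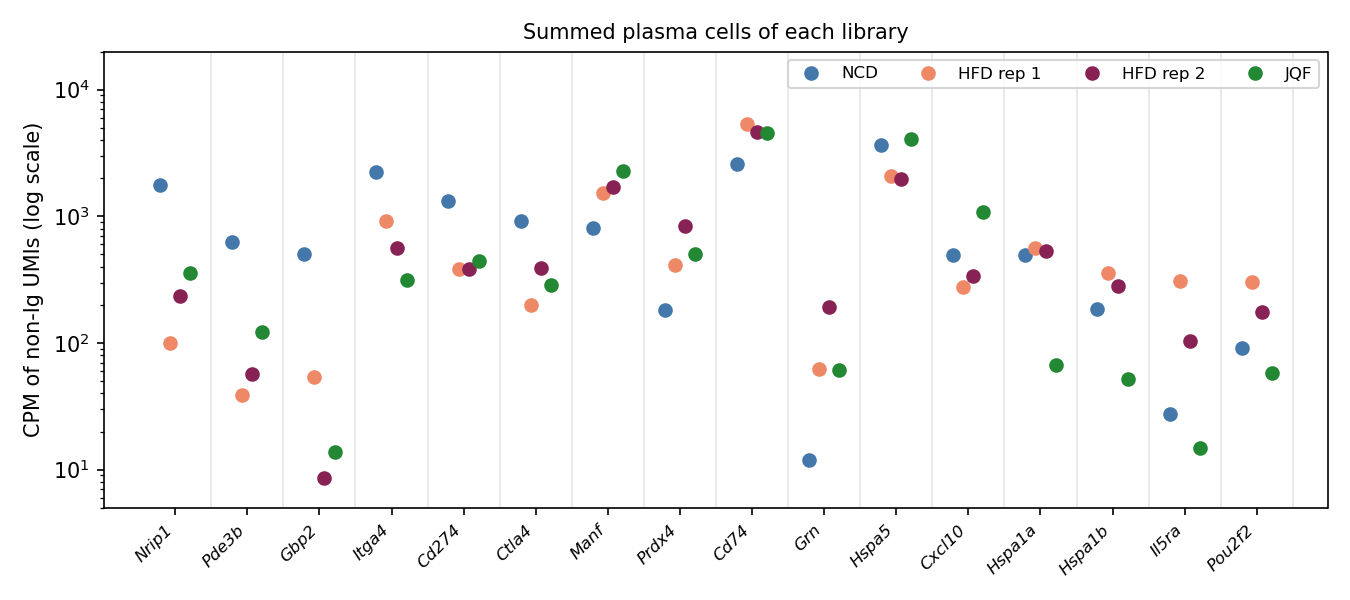
Levels of 16 genes in the summed plasma cells of each library, in CPM of UMIs other than immunoglobulin on a log scale, 1 point per library. NCD stands apart from the other libraries for Nrip1, Pde3b and Itga4, and JQF stands apart for Cxcl10, Hspa1a and Hspa1b.

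The inducible HSP70 genes fell in JQF. Hspa1a was at 491 CPM in NCD, 565 in HFD replicate 1, 527 in HFD replicate 2 and 67.0 in JQF (log2 -3.03, SE 0.48, adjusted p = 5.07e-08), and Hspa1b was at 186, 356, 281 and 52.1 CPM (log2 -2.60, SE 0.52, adjusted p = 8.26e-05). JQF lay far below the others for both. The Hspa1b call was lost when the Cd3 and Siglech conditions were dropped (log2 -1.20, adjusted p = 0.252) and, at a similar fold, in DESeq2 (log2 -2.61, adjusted p = 0.269). The pair is nearly identical in sequence and may share reads. Both were also lower in JQF in B-scored cells (log2 ratios of -1.26 and -2.53) and in all other cells (-0.91 and -1.18). Of the 16 immediate early and heat shock genes, Egr1 and Ier2 rose in JQF (log2 1.17 and 1.26, adjusted p = 0.032 and 0.0331), Hspa1a and Hspa1b fell, and 12 of 16 were above HFD. In HFD against NCD, Atf3 rose from 3.96 CPM to 162 and 135 CPM (log2 5.21, adjusted p = 2.88e-06), while Fosb (log2 -1.12, adjusted p = 0.00653) and Egr1 (log2 -1.07, adjusted p = 0.0376) fell. The NCD level of Atf3 lay under the floor of 3 UMIs (11.9 CPM in NCD), so the size of its fold is uncertain. Atf3 passed the filter only through other libraries, so its direction was largely fixed by the filter. DESeq2 did not call Atf3 (log2 5.32, adjusted p = 0.0678). With the Cd3 and Siglech conditions dropped, the calls of Egr1 and Ier2 in JQF were lost at similar folds (log2 1.10 and 1.20, adjusted p = 0.0691 and 0.0593), and that of Egr1 also without the mixed cells (log2 1.09, adjusted p = 0.0729). The Egr1 call in HFD was lost under 5 alternatives, among them without the mixed cells (log2 -0.65, adjusted p = 0.298), and the Fosb call with immunoglobulin genes kept, at a similar fold (adjusted p = 0.0748). DESeq2 made none of the calls of Egr1, Ier2 and Fosb.

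Cell cycle genes were higher in JQF than in HFD. In JQF against HFD, 14 of 14 tested were higher and 7 passed (median log2 2.79), among them Mki67, at 384 CPM in NCD, 38.7 in HFD replicate 1, 25.8 in HFD replicate 2 and 194 in JQF (log2 2.66, adjusted p = 0.000114). DESeq2 did not call it (log2 2.65, adjusted p = 1). The high cells were picked by their UMIs of this same list and lay in JQF and NCD alone, so a value without them is fixed by that choice and is not given. The genes at 0 in both HFD libraries are given as lower bounds with 3 UMIs over the group: Pclaf was at least 20.0-fold, Cdca3 and Tpx2 at least 7.79-fold, Ccnb2 at least 7.62-fold and Nusap1 at least 6.10-fold higher in JQF. Birc5, Stmn1 and Cdc20, genes of mitosis and its spindle, were at 54.2, 74.4 and 55.3 CPM in JQF against 0 to 5.73 CPM in HFD. In HFD against NCD 7 of 14 fell and 14 of 14 were lower (median log2 -3.16, or -3.01 with bounds), but the NCD values came largely from 1 cell. The JQF values were uneven as well: the highest cells held 359 and 284 UMIs of the list, against a JQF median of 5. Those cells held 73 and 80 UMIs of Mki67 plus Top2a, and Scrublet at the expected rate marked both. Genes at or near 0 in both HFD libraries passed the filter only because NCD or JQF was high. Their direction was fixed by that filter, so both counts of 14 of 14 are descriptions.

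Other genes are named from those called that rested on at least 3 cells, with no cell over 50% and both HFD libraries on the same side, by the size of change in HFD against NCD. Nrip1, a nuclear receptor corepressor gene, was at 1761 CPM in NCD, 101 in HFD replicate 1, 235 in HFD replicate 2 and 354 in JQF, with UMIs in all 11 NCD cells (log2 -3.19, SE 0.37, adjusted p = 1e-13). It was also lower in B-scored cells (log2 ratio -1.25) but not in all other cells (0.05). Pde3b, which degrades cyclic AMP, was at 629, 38.7, 57.3 and 121 CPM (log2 -3.52, adjusted p = 3.4e-10). Gbp2, an interferon-induced GTPase gene, was at 503, 54.2, 8.60 and 13.8 CPM (log2 -4.30, adjusted p = 2.9e-11), in 4 of 11 NCD cells. NCD was highest for all of these. Dennd4a and Alcam, chosen after their values were seen, also fell, Dennd4a from 4294 CPM in NCD to 642 and 659 CPM (log2 -2.61, adjusted p = 1e-13) and Alcam, an adhesion molecule gene, from 2383 to 348 and 416 CPM (log2 -2.52, adjusted p = 6e-11).

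Slc38a6, Rad18, Arl13b, Stx11, Klrb1, AW011738 and 4933406I18Rik also fell in HFD, by log2 changes of -3.03 to -4.06, from NCD levels of 91.0 to 178 CPM. The calls of AW011738 and 4933406I18Rik were lost without the mixed cells (log2 -1.95 and -2.40, adjusted p = 0.356 and 0.16), and that of Klrb1 without the cells high in cell cycle genes (log2 -3.55, adjusted p = 0.278). Higher in HFD were Ifitm3, an antiviral membrane protein gene (7.92 CPM in NCD against 23.2 and 232 CPM, log2 4.25), and the calcium-binding protein gene S100a6 (7.92 against 92.8 and 166 CPM, log2 4.16), as well as Grn, Ggh, Igtp and Pld4 (log2 3.61 to 4.61). The NCD levels of Ifitm3 and S100a6 lay under the floor of 3 UMIs (11.9 CPM in NCD), so the size of these folds is uncertain. Both genes passed the filter only through other libraries, so their direction was largely fixed by it. DESeq2 did not call S100a6 (log2 4.16, adjusted p = 0.086). Tyrobp, Tmc6 and Gstp1 were at 0 in NCD and are given as at least 12.3-fold, 4.58-fold and 4.40-fold higher. They passed the filter only because other libraries were high, so their direction was fixed by the filter. These bounds use the sum of both HFD libraries, so a single HFD library can carry them. The Gstp1 call was lost without the cells high in cell cycle genes (adjusted p = 0.0597). Tyrobp, S100a6 and Pld4 are used by myeloid or other immune cells as well, and their log2 ratios in all other cells were 3.12, 3.18 and 2.52. The macrophage markers summed to 4 UMIs in NCD and 390 in HFD replicate 2, of which 348 were in 1 cell, and without the mixed cells the Tyrobp call was lost with a fitted log2 of 7.32 in place of 8.67 (adjusted p = 0.0817). Tyrobp was found in 8 of 39 HFD cells, with 35.7% of the UMIs in 1 cell.

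Of the genes with large ratios to B-scored cells, Prg2 and Ly6c2 rose in HFD. Prg2 was at 154 CPM in NCD, 503 in HFD replicate 1, 777 in HFD replicate 2 and 270 in JQF (log2 2.18, SE 0.46, adjusted p = 0.000194), and DESeq2 called it as well (adjusted p = 0.0447). Ly6c2 was at 332, 727, 2491 and 793 CPM (log2 2.41, adjusted p = 1.21e-07), a call that DESeq2 did not make (log2 2.38, adjusted p = 0.542). NCD was lowest for both. For Slpi, whose HFD libraries lay on both sides of NCD, edgeR gave log2 1.35 (adjusted p = 0.000114) and DESeq2 log2 1.33 (adjusted p = 0.889).

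Il5ra, the interleukin-5 receptor gene, was the most reduced of the genes that rested on several cells in JQF. It was at 27.7 CPM in NCD, 309 in HFD replicate 1, 103 in HFD replicate 2 and 14.9 in JQF (log2 -3.68, SE 0.64, adjusted p = 1.56e-06), in 5 of 10 and 14 of 29 HFD cells and 8 of 46 JQF cells. DESeq2 did not call it at a similar fold (log2 -3.76, adjusted p = 0.269). Both HFD libraries lay above NCD and JQF, and in B-scored cells the log2 ratio was 0.38. Lyst, Camk2b, Blk, Sgk3, Evi5 and Ggh fell by log2 changes of -1.99 to -2.91, and DESeq2 called none of these. Without the cells high in cell cycle genes, the calls of Camk2b, Sgk3, Evi5 and Ggh were lost (log2 -1.65 to -1.88, adjusted p = 0.0817 to 0.304). Lyst lost its call when the Cd3 and Siglech conditions were dropped (log2 -1.05, adjusted p = 0.825), and Sgk3 also without the mixed cells (log2 -2.06, adjusted p = 0.178). Without the filter the calls of Ggh, Evi5 and Sgk3 were lost (log2 -2.41, -1.90 and -2.25, adjusted p = 0.055, 0.0603 and 0.109). For Blk, a B cell kinase gene, HFD replicate 1 stood apart at 333 CPM, against 63.1 in HFD replicate 2 and 31.9 in JQF.

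Several genes that were higher in JQF belong to other cell types. Spp1 (osteopontin) was at 0 in NCD and HFD and at 281 CPM in JQF, at least 44.7-fold higher, in 8 cells of which 1 held 49.6% of the UMIs. Lyz1 and Cxcl13 came from 1 cell each, and the keratin gene Krt8 from 5 cells of which 1 held 97.4%. Spp1, Lyz1, Cxcl13 and Krt8 were at or near 0 in HFD and passed the filter only because JQF was high. Their direction was thus largely fixed by the filter. Without the mixed cells the JQF UMIs dropped from 264 to 6 for Spp1, from 407 to 0 for Lyz1, from 236 to 0 for Cxcl13, from 195 to 3 for Krt8 and from 93 to 10 for the hepatocyte gene Ttr, and none of these 5 genes could be tested any more. Epithelial markers, Epcam included, summed to 793 UMIs in JQF, with 677 in a single cell of 89663 UMIs, against 23, 13 and 21 UMIs in NCD, HFD replicate 1 and HFD replicate 2. Hepatocyte markers summed to 442 UMIs, with 337 in 1 cell, and Ttr, a hepatocyte secretory protein gene, was at 98.8 CPM against 7.74 and 11.5 in HFD (log2 3.20, adjusted p = 0.00227). Magi3 was at 68.0 against 0 and 2.87 CPM and lost its call without the mixed cells (log2 3.96, adjusted p = 0.601). With the Cd3 and Siglech conditions dropped its log2 difference was -0.36. Without the mixed cells, 55 genes passed in JQF against HFD (40 higher and 15 lower) in place of 101, and 328 in HFD against NCD.

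Nutrient transport and metabolism genes did not move together: 0 of 17 rose and 1 fell in HFD (Myc, log2 -2.14, adjusted p = 0.0112, 59.5% of the NCD UMIs in 1 cell), and 0 of 17 passed in JQF against HFD, 1 of 17 at an unadjusted p under 0.05.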

How the data were processed

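Liver cell suspensions were profiled with the 10x Genomics 3' v3.1 workflow. The deposited values are UMI counts, made by the authors with Cell Ranger on mm10, without normalization. The submitters' notes name Cell Ranger 6.0.1 and Seurat 4.0.3, while the file headers name other Cell Ranger versions, so whether intronic reads were counted was not settled. The matrices hold 32285 genes, of which 427 are immunoglobulin genes in GENCODE M21.

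Cells were chosen on raw UMIs by the rule given in the report. Members and gene lists were chosen with earlier results of these data known, so list counts are descriptions. UMIs of the member cells were summed per library, immunoglobulin genes were removed, and edgeR 4.0.16 in R 4.3.3 was run (TMM scaling, filterByExpr, quasi-likelihood test, group as the only term, Benjamini-Hochberg over all genes tested, threshold 0.05) on all 4 libraries. The HFD pair supplied the only residual degree of freedom (1), and the labels do not tie libraries to named animals. SE was derived from the size of each log2 change and its F statistic (their ratio after taking the root of F). On counts simulated with the same spread for every gene, the test of JQF against HFD recovered 22 of 100 genes changed 4-fold. It recovered 73 of 100 changed 8-fold and made 0 false calls, so genes that did not pass can still differ. Cells that hold most UMIs of a gene were not simulated, so the rate of false calls in these data was not tested. Cells per lineage group and per class were tested with edgeR on counts, and single values with exact two-sided permutation tests over libraries. A cell was B-scored or T-scored by its highest lineage marker score (minimum 0.25). Near-empty barcodes held at most 100 UMIs. Folds against a group at 0 use a floor of 3 UMIs over the group. Named genes were list members of at least 50 CPM in some library or that define the absence of a programme, and up to 10 higher and 10 lower genes by size of change among those called, with both HFD libraries on the same side, UMIs in at least 3 cells and no cell over 50%. The genes Prg2, Prlr, Ly6c2, Slpi, Lyz1, Cxcl13, Krt8, Rpl35, Rps27, Rps29, Rpl37a, mt-Co1, Dennd4a and Alcam were chosen after their values were seen. Promoter windows are from RefSeq, GRCm38.p6. Doublets were scored with Scrublet in scanpy 1.11.5 as an alternative and were not removed. DESeq2 1.42.0, other filters and left-out libraries were the other alternatives.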

Additional observations from a re-analysis of the deposited data

Results flagged for a closer look

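A set of barcodes in JQF that nearly all lay outside the rule stood out. In this library 41 barcodes of under 4500 UMIs held at least 10 Jchain and 30 Ighm UMIs, and NCD and the HFD libraries held 0. They had 1296 to 4438 UMIs (median 2464), 63 to 130 Ighm UMIs, 13 to 43 Jchain UMIs and 11.3% to 26.0% immunoglobulin. Ighm led in all 41, and Ms4a1 was at 0 in each. Of their heavy V UMIs 9 of 9 were Ighv1-61, and of their kappa V UMIs 16 of 16 were Igkv8-30. One of them was a member, and without it JQF had 45 plasma cells (0.527%).

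In JQF 23 cells met both UMI minimums of the rule but carried a Cd3 UMI (1 of them also Siglech), against 2 in HFD replicate 2 and 0 in the other libraries. Of these, 9 held 1 Cd3 UMI and 14 held more, up to 63. They had 1983 to 80766 UMIs and 11.5% to 56.1% immunoglobulin (median 36.8%). Igha led among the heavy chains in 5 of them and Ighm in 9.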

How the results depend on the processing

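No paired analysis was possible because the groups compared share fewer than 2 replicate numbers. The log2 ratio of the plasma cell share in HFD to NCD changed sign with predicted doublets removed (-1.20), with Ptprc cells as the denominator (-0.87) and without HFD replicate 2 (leaving out 1 HFD library, -0.26 to 0.62). For JQF against HFD it was 6.0 with predicted doublets removed (adjusted p = 0.057) and 0.93 to 1.81 with an HFD library left out. Scrublet at the expected rate marked 10 of 11, 9 of 10, 29 of 29 and 3 of 46 members, so classes and genes were not tested after it (JQF then had 16 IgA and 13 IgM cells of 43), and at its own threshold it marked 0. The IgA ratio in JQF against HFD turned to -0.10 without the Cd3 and Siglech conditions. The IgM ratio turned to 0.13 there, to 0.0299 with a Jchain minimum of 5, and spanned -0.62 to 0.24 with an HFD library left out. The gene fits without 1 HFD library have no test.

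DESeq2 called 25 genes in HFD against NCD (8 higher and 17 lower, with 4504 genes left without an adjusted p) and 5 in JQF against HFD (4 and 1). In HFD against NCD the higher genes numbered 145 with immunoglobulin genes kept and 62 without the filter. In JQF against HFD the lower genes numbered 54 with immunoglobulin genes kept. Alternatives chosen after seeing the data gave 55 calls (40 higher, 15 lower) without the mixed cells and 62 (46 higher, 16 lower) without the cells high in cell cycle genes. The alternatives on the Cd3 and Siglech conditions and on the member below 4500 UMIs were also chosen then. In IgA cells without HFD replicate 1, which is a value with no test, H2-Aa (-0.76), Ctla4 (0.10), Hspa5 (0.14), AW011738 (0.96) in HFD against NCD and Cxcl10 (-0.35) in JQF against HFD changed sign, and Magi3 did so without the Cd3 conditions (-0.36). Of the 81 edgeR calls counted in the results, DESeq2 made 9, did not make 48 and gave no adjusted p for 24. That count left out Prg2, Lyz1, Cxcl13, Rpl35, Rps27, Rps29, Rpl37a and mt-Co1, which DESeq2 also called. The 10 to 46 cells per library limit what shares and low genes can show.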
